A study of Arabidopsis thaliana with 13 samples.

Results

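MPC (AT3G19350) and AT3G23060 are a pair of Arabidopsis thaliana genes known as maternally expressed imprinted genes, and their transcripts were followed through crosses that changed the dose of parental genomes or removed MEDEA. They were chosen by name, as 2 of 8714 genes that had a probe set of their own among the 15982 probe sets tested, and each is read by 1 probe set. The array was the Affymetrix ATH1, hybridised with RNA of whole siliques (the fruit with its seeds), and a level is given as the MAS5 signal in array units. A cross is written with the seed parent first, so that 2xX6x is a diploid mother pollinated by a hexaploid father.

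The balanced cross was 2xX2x, paternal excess came from 2xX4x and 2xX6x, and maternal excess from 4xX2x and 6xX2x, all collected 5 days after pollination. In fis1X2x the mother was homozygous for fis1-3 (also called mea-3), a mutation of MEDEA, and the father was a diploid. Each of these 6 crosses had 2 biological replicates, each a pool of siliques from several plants, and the unfertilised msi1 mutant had 1 array of siliques taken 7 days after flower opening. Both parents were C24, an accession of the species, in the balanced and the tetraploid crosses, whereas Col-1 gave the hexaploid father of 2xX6x and the hexaploid mother of 6xX2x, and Ler carried fis1-3. The C24 mothers were male sterile through an A9-barnase transgene, and the hexaploid mother was emasculated before pollination. The msi1 siliques came from male sterile F1 plants between msi1-2 in C24 and C24 carrying A9-barnase, picked because their pistils lengthened without pollination. Such F1 plants carry the mutation from 1 parent only, so their siliques may hold wild type ovules beside mutant ones. The fis1-3 mother was not matched with a wild type Ler mother in the arrays used here, so the mutation and the accession cannot be told apart in that cross. MEDEA itself was not checked, because the annotation used here assigns it no probe set of its own.

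Imprinted genes are transcribed mainly from the allele of 1 parent, in plants chiefly in the endosperm, the tissue that feeds the embryo. The endosperm arises when a sperm fuses with the central cell, and in a balanced cross the endosperm carries more maternal than paternal genomes. At many maternally expressed genes the allele from the father stays silent through DNA methylation, maintained by MET1, while the demethylase DME opens the maternal allele in the central cell. MEDEA, also called FIS1, is the histone methyltransferase of a Polycomb Repressive Complex 2 of the seed, in which MSI1 is another subunit. MPC stands for MATERNALLY EXPRESSED PAB C-TERMINAL and encodes a protein that holds the C-terminal domain of poly(A)-binding proteins, the part that docks partner proteins. AT3G23060 encodes a RING finger protein, a class that includes ubiquitin ligases. In the gene table both genes are protein coding and lie on chromosome 3, MPC between AT3G19340 and AT3G19360, and AT3G23060 between IAA7 and CFM3A.

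MPC had its highest signal in fis1X2x and 2xX6x and a low signal everywhere else. On the 2xX2x arrays MPC read 14.8 and 5, a mean of 9.9 ± 6.93 (SD, n = 2). The 2xX6x arrays read 161.7 and 154, and the fis1X2x arrays 268.7 and 158.3. These 4 arrays stood far above all others, and no array of another group came above 39.5. The viable paternal excess cross 2xX4x read 28.1 and 32.4. In maternal excess MPC read 11.6 and 39.5 in 4xX2x, and 20.8 and 16.5 in 6xX2x. Signals in 4xX2x differed 3.41-fold between replicates, and both 2xX4x arrays lay inside that range. The msi1 array read 13.1, within the range of the balanced cross.

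AT3G23060 was lowest in maternal excess, intermediate in the balanced cross and highest in 2xX6x and fis1X2x. It read 25.1 and 25 in 2xX2x, a mean of 25.1 ± 0.0707 (SD, n = 2). In 4xX2x it fell to 1.4 and 2.1, and in 6xX2x it read 9.6 and 2.1. The 4 maternal excess arrays therefore lay below all 9 others. In 2xX4x the signal was 25.7 and 32.9, in 2xX6x 52.4 and 58, and in fis1X2x 65.9 and 38.4. The 2xX6x and fis1X2x arrays overlapped each other and lay above the remaining crosses. The msi1 array read 26.4, between the 2xX4x arrays and just above the 2xX2x arrays.

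**Figure D1:**
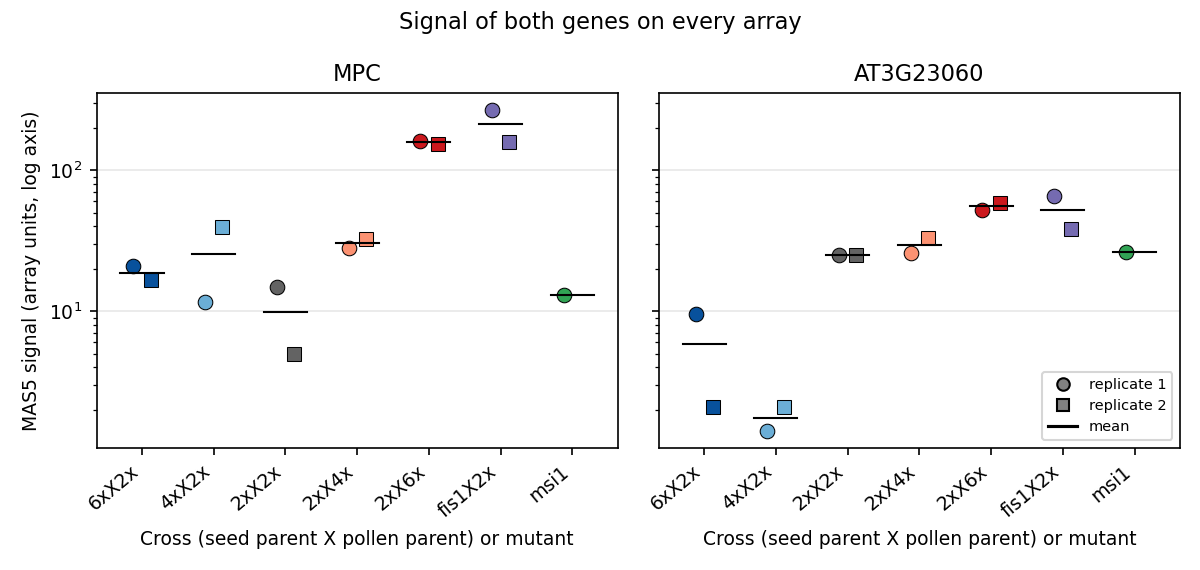
MAS5 signal (array units, log axis) of MPC and AT3G23060 on each of the 13 arrays, by cross or mutant, with replicates as points and group means as bars. MPC reads above 150 only in 2xX6x and fis1X2x, whereas AT3G23060 climbs from 1.4 in 4xX2x to 65.9 in fis1X2x.

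Most of these signals were low, which limits their precision, although MPC lay at percentiles 80.2 to 89.1 on the arrays of 2xX6x and fis1X2x. The array median was between 38 and 46.4, and AT3G23060 ranged between percentiles 10.4 and 60.0 of its array, and MPC between 16.2 and 89.1. MPC came above the 40th percentile used as a filter on 6 of 13 arrays, and AT3G23060 also on 6. Those of MPC were in 2xX4x, 4xX2x, 2xX6x and fis1X2x, and those of AT3G23060 in 2xX4x, 2xX6x, fis1X2x and msi1. MPC thus entered the tests mainly through groups in which it was high, and AT3G23060 through no balanced or maternal excess array. Only 2 arrays made a group, and the smallest p that an exact permutation of 2 against 2 arrays allows is 0.333, so single crosses rest on limma, which pools the spread of all replicated groups. Differences below are on the scale of log2(signal + 7.4), where the offset damps the change of low signals. In whole siliques, fewer endosperm cells and less RNA per endosperm cell cannot be told apart.

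Against the balanced cross, MPC rose in both crosses with a lethal paternal excess phenotype. In 2xX6x it was 9.96-fold higher (log2 3.32 ± 0.44 SE, adjusted p = 0.00311, limma), where 0.951% of all probe sets passed. In fis1X2x it was 12.9-fold higher (log2 3.69 ± 0.44, adjusted p = 0.0011, limma), where 2.18% passed. The ratio of mean signals without the offset was 15.9 and 21.6, respectively. The calls in 2xX6x and fis1X2x held in every alternative run, leaving out any array included. The log2 difference was 1.18 ± 0.44 in 2xX4x (adjusted p = 1, limma), where 0.0813% of probe sets passed, so the difference there did not stand above the test although both its arrays exceeded both 2xX2x arrays.

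MPC did not pass in either maternal excess cross. Its log2 difference from 2xX2x was 0.85 (95% interval -0.12 to 1.81, adjusted p = 0.508) in 4xX2x and 0.65 (-0.32 to 1.61, adjusted p = 0.519) in 6xX2x. Both estimates share the 2xX2x arrays with the other crosses, and without replicate 2 of 2xX2x, the lower of that pair, they were 0.43 and 0.23. Without replicate 1 of 2xX2x they were 1.27 and 1.07. The replicates of 4xX2x also pulled apart, with 1.50 when replicate 1 was left out and 0.20 when replicate 2 was. The shares of probe sets that passed were 2.18% in 4xX2x and 2.31% in 6xX2x.

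AT3G23060 moved downwards with maternal excess. In 4xX2x it was 3.55-fold lower than in 2xX2x (log2 -1.83 ± 0.38, adjusted p = 0.0338, limma), although with no filter it did not pass (adjusted p = 0.0522, limma). Its 4xX2x signals of 1.4 and 2.1 lie below the offset. The size of this fall therefore depends on the offset, and without one it was -3.87 on the log2 scale (adjusted p = 0.0221), with a ratio of mean signals of 14.3. This call was lost when either array of 4xX2x, 2xX2x, 2xX4x or 2xX6x was left out, with adjusted p between 0.0584 and 0.199. In 6xX2x the log2 difference was -1.35 ± 0.38 (adjusted p = 0.109, limma), which did not pass. Replicate 1 of 6xX2x, the higher of the pair at 9.6, also had a 3′ to 5′ signal ratio of the actin control of 28.5, against 2.81 to 17.0 on the other arrays. Its ratio for the GAPDH control was 6.93, against 1.2 to 2.84 on the others. Without that array the difference was -1.77, and without replicate 2 it was -0.93. The same array enters the MPC value in 6xX2x and every comparison or slope below that uses 6xX2x. The part of RNA quality in these values was not tested.

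In paternal excess and in fis1X2x, AT3G23060 was higher in all 6 arrays than in both balanced arrays, yet no single cross passed. The log2 difference was 0.17 (95% interval -0.68 to 1.02) in 2xX4x, 0.95 (0.10 to 1.79) in 2xX6x and 0.84 (-0.01 to 1.68) in fis1X2x. Their adjusted p-values were 1, 0.799 and 0.422 (limma). The interval for 2xX6x leaves out 0 only before adjustment over all probe sets.

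**Figure D2:**
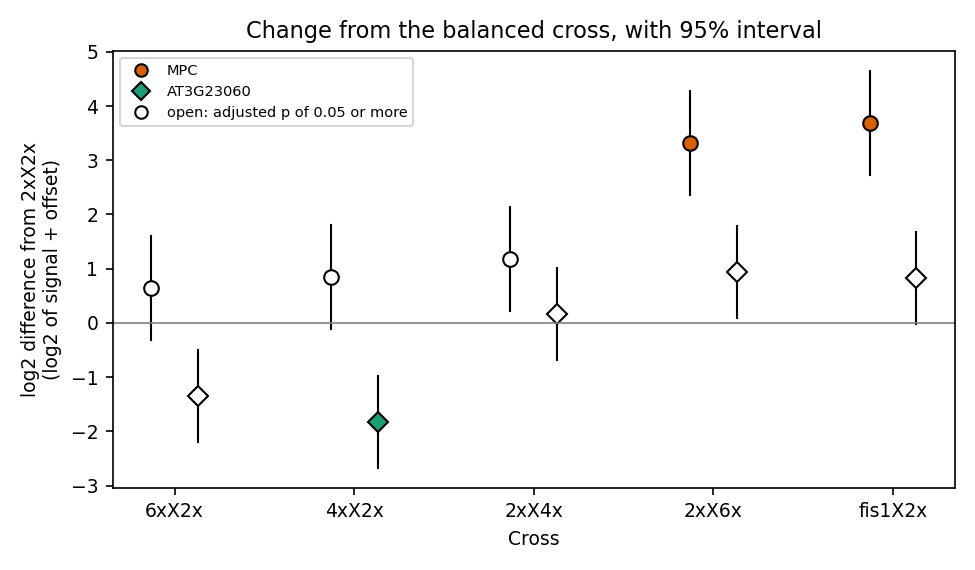
Difference of each cross from 2xX2x on the scale of log2(signal + 7.4), with 95% intervals from limma (n = 2 arrays per cross). Filled symbols passed at an adjusted p below 0.05, which are MPC in 2xX6x and fis1X2x and AT3G23060 in 4xX2x.

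Paternal and maternal excess were then compared directly. AT3G23060 was 4.43-fold higher in the 4 paternal excess arrays than in the 4 maternal excess arrays (log2 2.15 ± 0.27, adjusted p = 0.00069, limma), with no overlap of signals. The exact two-sided permutation test over these 8 arrays gave p = 0.0286, the smallest it allows. Each side pooled the replicates of its crosses, so the units permuted were silique pools and not independent crosses. MPC was 2.83-fold higher (log2 1.50 ± 0.31, adjusted p = 0.0162, limma), and here 1 array of 4xX2x (39.5) lay above both 2xX4x arrays. The exact permutation test for MPC gave p = 0.0857. In this comparison 5.58% of all probe sets passed. The call for MPC was lost without replicate 1 of 4xX2x, replicate 1 of 2xX6x or either replicate of 2xX4x, at adjusted p of 0.0502 to 0.0731.

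Reciprocal crosses between parents of the same ploidies were compared next. Their endosperm still differs in total genomes, with 2 maternal and 2 paternal in 2xX4x against 4 and 1 in 4xX2x. In 2xX6x there are 2 maternal and 3 paternal, against 6 and 1 in 6xX2x. Between 2xX4x and 4xX2x, which are both C24 and both viable, AT3G23060 was 3.99-fold higher with the tetraploid father (log2 2.00 ± 0.38, adjusted p = 0.0156, limma). Since the 4xX2x signals lie below the offset, this fold depends on it too, and without an offset the log2 difference was 4.08 (adjusted p = 0.0124), with a ratio of mean signals of 16.7. MPC differed by 0.33 on the log2 scale between them (95% interval -0.63 to 1.30, adjusted p = 0.835, limma). That value was -0.32 without replicate 1 of 4xX2x and 0.98 without replicate 2 (adjusted p = 0.332). Here 3.2% of probe sets passed. The AT3G23060 call was lost when any of these 4 arrays was left out, at adjusted p of 0.0558 to 0.178. Between 2xX6x and 6xX2x, where 2.87% of probe sets passed, both genes were higher with the hexaploid father. MPC was 6.36-fold higher (log2 2.67 ± 0.44, adjusted p = 0.00738) and AT3G23060 4.92-fold higher (log2 2.30 ± 0.38, adjusted p = 0.00824). Leaving out replicate 1 of 2xX6x took MPC to an adjusted p of 0.0716, and leaving out either array of 2xX6x took AT3G23060 to 0.0627 or 0.0699. The Col-1 parent was the father in 2xX6x and the mother in 6xX2x. The parental source of the Col-1 genomes and the dose therefore cannot be told apart between these crosses.

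Within paternal excess, MPC read 4.40-fold higher in 2xX6x than in 2xX4x (log2 2.14 ± 0.44), but at an adjusted p of 0.104 (limma) this step did not pass in a comparison where only 0.338% of probe sets did. It passed without either array of 4xX2x, at adjusted p of 0.0453 and 0.0476. AT3G23060 differed by 0.78 ± 0.38 between them (adjusted p = 1). Between 6xX2x and 4xX2x neither gene passed, while 2.97% of probe sets did. The log2 difference there was -0.20 (95% interval -1.17 to 0.76) for MPC, which turned to 0.45 without replicate 2 of 4xX2x, and 0.47 (-0.37 to 1.32) for AT3G23060.

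Dose was also treated as a gradient, from 1 paternal to 6 maternal endosperm genomes in 6xX2x up to 3 paternal to 2 maternal in 2xX6x. AT3G23060 rose by 0.80 ± 0.13 on the log2 scale for each 2-fold rise of the paternal to maternal ratio (1.74-fold, adjusted p = 0.00818, limma, 10 arrays). The slope for MPC was 0.65 ± 0.23 (adjusted p = 0.154, limma). Replicates of a cross share their dose and entered these fits as separate arrays. Of all probe sets, 2.45% had a slope that passed. With the C24 crosses alone, which span 2xX4x, 2xX2x and 4xX2x in 6 arrays, the slope was 1.00 ± 0.24 for AT3G23060 (adjusted p = 0.111) and 0.17 ± 0.32 for MPC (adjusted p = 0.865). Accession and the hexaploid dose cannot be told apart in the crosses this leaves out. Both genes are known as maternally expressed, and the signal of AT3G23060 was lowest where the endosperm holds 4 or 6 maternal genomes and higher at each dose with 2.

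The lowest mean of MPC, 9.9, was that of the balanced cross in the middle of the gradient. A squared dose term, added after these values had been seen, was 0.75 ± 0.18 for MPC (unadjusted p = 0.00121, adjusted p = 0.107, limma) and 0.05 ± 0.16 for AT3G23060 (adjusted p = 0.95). It passed for 0.369% of all probe sets, and not for either gene.

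**Figure D3:**
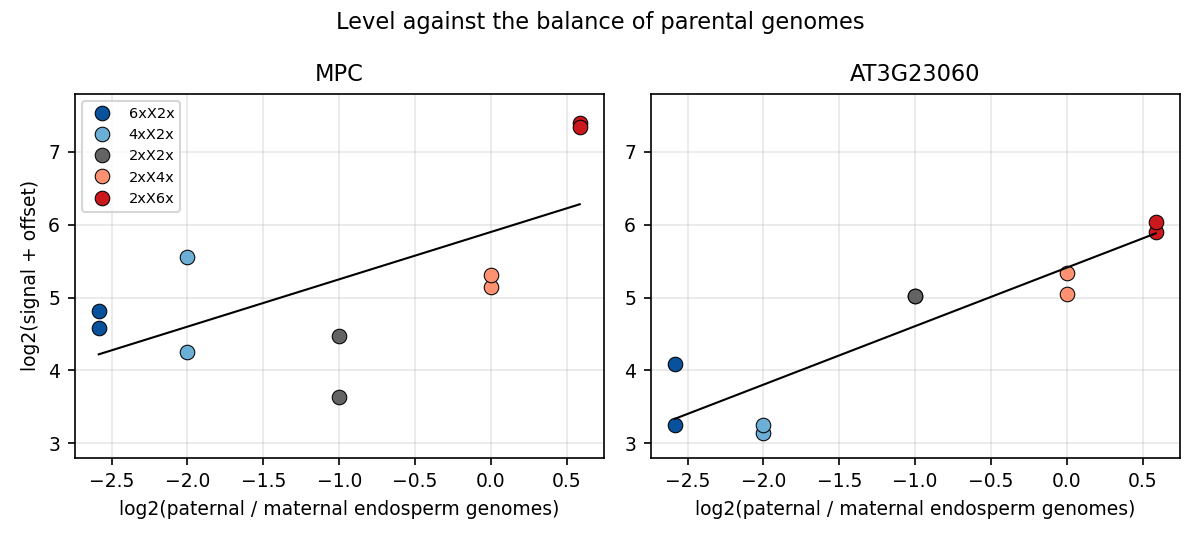
Level of each gene, as log2(signal + 7.4), against log2 of paternal over maternal endosperm genomes in the 10 arrays of the balanced and interploidy crosses, with the fitted line. AT3G23060 follows a slope of 0.80, and the MPC points of 2xX6x lie above its line while those of 2xX2x lie below.

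Loss of MEDEA, in a Ler mother, was compared with added paternal genomes, given to C24 mothers by a C24 father in 2xX4x and a Col-1 father in 2xX6x. Mutation, dose and accession cannot be told apart between fis1X2x and either of these crosses. The paper also reports somewhat shorter siliques in fis1X2x, which it ascribes to the Ler seed parent. Neither gene differed detectably between fis1X2x and 2xX6x, a comparison in which 0.194% of probe sets passed. The log2 difference was 0.37 for MPC (95% interval -0.59 to 1.34, adjusted p = 0.891) and -0.11 for AT3G23060 (-0.96 to 0.74, adjusted p = 0.972), so that differences of up to about these bounds remain possible. Against 2xX4x, MPC was 5.69-fold higher in fis1X2x (log2 2.51 ± 0.44, adjusted p = 0.0179, limma), where 1.63% of probe sets passed. This call was lost without replicate 1 of fis1X2x or either array of 2xX4x, at adjusted p of 0.12 to 0.154. AT3G23060 differed by 0.67 (-0.18 to 1.51, adjusted p = 0.581). The fis1X2x endosperm has the same genome balance as 2xX2x, with 2 maternal genomes and 1 paternal genome, and both comparisons with 2xX2x share those control arrays.

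Ranked by mean signal, MPC ran 2xX2x, msi1, 6xX2x, 4xX2x, 2xX4x, 2xX6x, fis1X2x, and AT3G23060 ran 4xX2x, 6xX2x, 2xX2x, msi1, 2xX4x, fis1X2x, 2xX6x. No pair of neighbouring replicated crosses in either order passed the test. The msi1 array was 0.31 above the 2xX2x mean for MPC and 0.06 above it for AT3G23060 on the log2 scale, values that have no replicate check. Unfertilised msi1 seeds hold no paternal genome, and the msi1 signal lay above 2 of the 12 other arrays for MPC and above 7 of them for AT3G23060.

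The change of MPC was also set against that of AT3G23060 within each array, as the log2 difference of the pair relative to its value in 2xX2x. MPC had gained on AT3G23060 by 1.01 in 2xX4x, 2.37 in 2xX6x and 2.85 in fis1X2x. In maternal excess the gain was 2.67 in 4xX2x and 2.00 in 6xX2x, and in msi1 it was 0.25. All of these values are measured from the same pair of 2xX2x arrays, which themselves ran from -1.39 to -0.55 in this difference, so that a shared sign across crosses is no result. Single crosses of 2 arrays were not tested for this measure, and between paternal and maternal excess it differed by -0.65 (exact two-sided permutation, p = 0.257, 4 against 4 arrays). Across the 13 arrays the genes had a Pearson r of 0.637, given as a description, since the arrays share their groups.

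The genes whose profiles most resembled each member also differed. For MPC they were AT4G17505, TBL15, AT1G13680, AT1G64830 and AT4G10210, with r of 0.912 to 0.934 over 13 arrays. TBL15 belongs to a family that acetylates cell wall polymers, and its mean signal was 8.25 in 2xX2x, 111 in 2xX6x and 311 in fis1X2x. Its mean was 6.5 in 4xX2x and 11.5 in 6xX2x, where the means of MPC were 25.6 and 18.7 against 9.9 in 2xX2x. AT1G13680 had a mean of 1.5 in 2xX2x, 48.4 in 2xX6x and 84.1 in fis1X2x.

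For AT3G23060 the most similar genes were AT5G09370, AT4G11400, SWEET8, AT2G02515 and AT3G57160, with r of 0.939 to 0.972. AT4G11400 is on the list of paternally expressed imprinted genes used here. Its mean signal was 6.75 in 4xX2x, 10.1 in 6xX2x, 48.5 in 2xX2x, 69.4 in 2xX4x, 141 in 2xX6x and 129 in fis1X2x. Its likeness to AT3G23060 is what chose it here. SWEET8, of a family of sugar transporters, had means of 17.1 in 4xX2x, 103 in 2xX2x and 530 in 2xX6x. AT5G09370 went from 34.4 in 4xX2x through 539 in 2xX2x to 2169 in 2xX6x.

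**Figure D4:**
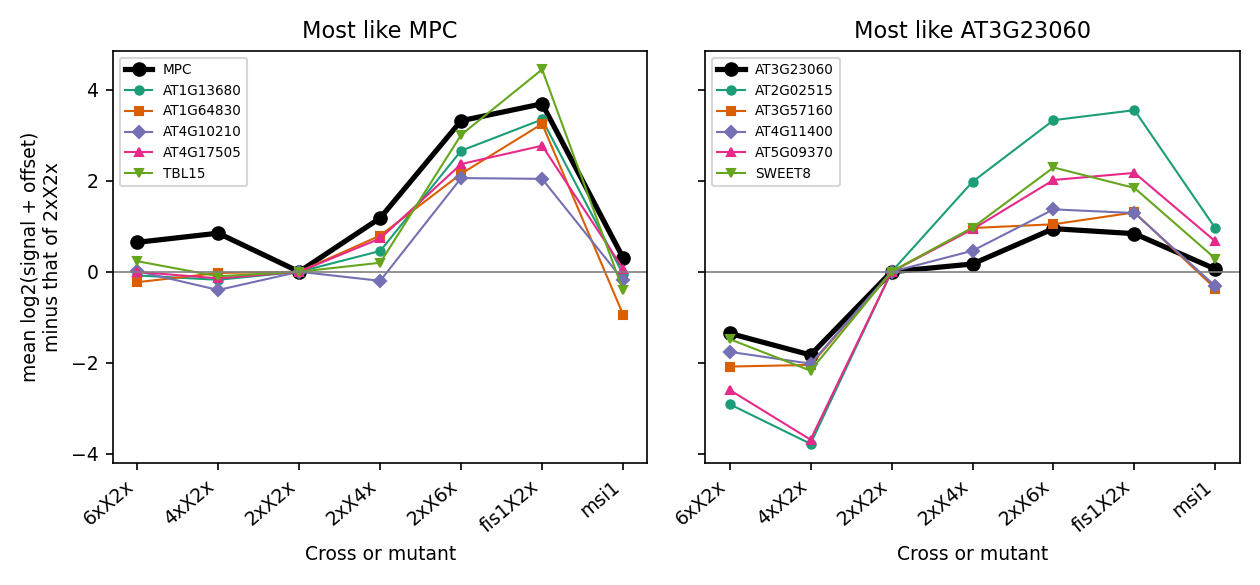
Mean log2(signal + 7.4) of each cross or mutant minus that of 2xX2x, for MPC and the 5 genes most like it (left) and for AT3G23060 and its 5 (right). The genes were chosen for this likeness. Those like MPC have their highest means in 2xX6x and fis1X2x, and those like AT3G23060 lie below 0 in 4xX2x and 6xX2x.

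Few neighbours of each gene on the chromosome could be tested, and with 0.0813% to 2.31% of all probe sets passing in single crosses a count of 0 among them is no result about them. Of the 10 loci around MPC, 9 had a probe set of their own and 6 were tested, and 0 passed in any cross (limma), with 0 at an unadjusted p below 0.05 in the 5 crosses. Of the 10 around AT3G23060, 5 had a probe set and 3 were tested, and 0 passed, with 1 at an unadjusted p below 0.05. Log2 differences from 2xX2x ran from -1.08 to 0.87 around MPC and from -0.21 to 1.03 around AT3G23060.

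Related genes could be followed only in part, because the annotation used here names a gene for 14016 of 22746 probe sets, and the probe sets of other genes were tested without a name. Among the 11 other listed maternally expressed imprinted genes only DME could be read in this way, and it passed in none of the 5 crosses or the parental comparison. Its mean signal stayed between 48.6 in 6xX2x and 76.8 in 4xX2x, with a log2 difference of -0.03 between paternal and maternal excess (adjusted p = 0.949, limma). DME was also the 1 gene that could be read of 9 listed genes of DNA methylation and demethylation. Among 11 listed paternally expressed genes 1 was tested, AT4G11400. It was 4.05-fold lower in 4xX2x (adjusted p = 0.0234, limma) and 3.38-fold lower in 6xX2x (adjusted p = 0.0446, limma), and 6.98-fold higher in paternal than in maternal excess. AGL92 had a probe set below the filter, with signals of 1.5 to 19.4. Of 21 poly(A)-binding proteins and their CTC-interacting partners 1 was tested, CID2, whose product carries a motif that binds the domain that MPC encodes. CID2 had log2 differences from 2xX2x between 0.39 in fis1X2x and 0.84 in 6xX2x, none of which passed. The listed components of Polycomb Repressive Complexes 1 and 2 have no named probe set of their own in this annotation and were not analysed here.

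Of 8 listed endosperm markers, 2 could be read with this annotation, AGL62, which represses endosperm cellularisation, and IKU2, a receptor kinase gene of seed growth. AGL62 was 4.03-fold higher in fis1X2x than in 2xX2x (adjusted p = 0.0356, limma) and 3.62-fold higher in 2xX6x, where it did not pass (adjusted p = 0.0945). Its mean signal was 6.65 in 2xX2x, 44 in 2xX6x, 48.9 in fis1X2x and 30.6 in msi1. IKU2 was below the filter, with means of 7.95 in 2xX2x, 17.5 in 2xX6x and 5.05 in fis1X2x. Their summed signal was 8.6 to 20.6 in 2xX2x, 10.7 to 18.8 in 2xX4x, 10.3 to 19 in 4xX2x and 20.2 to 27.6 in 6xX2x. It was 49.7 to 73.2 in 2xX6x, 47.2 to 60.7 in fis1X2x and 48.9 in msi1. In msi1 the sum was near that of fis1X2x, and MPC read 13.1. The paper lists AGL62 among genes overexpressed in fis1X2x and msi1, some of which it proposes the mutations could deregulate. The sum therefore cannot separate the amount of endosperm from an effect of either mutation on AGL62. The sum of AGL62 and IKU2 did not fall in maternal excess, where AT3G23060 was lowest. Their means were already low in 2xX2x, at 6.65 and 7.95, so a fall below that cross could hardly have been seen with them. The seed coat gene BAN, the 1 of 7 listed seed coat markers that could be read, read between 640.1 in msi1 and 1838.7 in 6xX2x and passed in no cross. No listed embryo or silique wall marker could be read with this annotation, and these were not analysed here. The part of tissue proportions in the changes of either gene was not tested.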

How the data were processed

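MPC and AT3G23060 were measured on 13 Affymetrix ATH1 arrays. The authors hybridised 1 RNA sample per array and computed MAS5 signals in GCOS, and the deposited intensity values are linear and scaled to a common trimmed mean of 100.01. The table holds 22810 probe sets, of which 64 controls were left out. Genes were named from the platform annotation (1 gene for 13513 probe sets, several for 503, none for 8730), and loci from the TAIR10.1 gene table, used only for names and gene order.

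Signals were transformed as log2(signal + 7.4), the offset being the 20th percentile of all signals, and 15982 probe sets above the 40th percentile on at least 2 arrays were kept. The 12 replicated arrays were fitted together in limma 3.58.1 (R 4.3.3; 6 residual degrees of freedom, eBayes with trend), with Benjamini-Hochberg adjustment over all kept probe sets and a threshold of 0.05. The dose slope used 10 arrays. Permutation tests were exact and two-sided. Tests were checked on simulated data. The number of arrays limits the precision. For the limma group contrasts, p-values measure the spread between replicate silique pools. Those of the dose fits and the permutation tests also depend on differences between crosses.

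The members and gene lists were chosen with earlier results of these data known. Named genes were both members, the 5 most correlated kept probe sets of 1 gene for each, 5 loci on either side, listed genes that passed and listed maternally expressed imprinted genes with a probe set. CID2, BAN, AGL92 and IKU2, which passed in no comparison or were not tested, were named in addition as the ones of their lists that could be read. The lists covered imprinted genes, poly(A)-binding and partner proteins, Polycomb components, DNA methylation, and markers of endosperm, embryo, seed coat and silique wall. Alternatives were the offset, filter, normalization, array weights, moderation, compared arrays alone, a replicate block and leaving out each array. Replicate numbers were not used as pairs: over 15 pairs of crosses the correlation of replicate differences ran from -0.24 to 0.41, with 6 above 0.1. Replicate arrays correlated at 0.897 to 0.962. Detection calls and the 2-colour arrays of the study were not used here. Figures were drawn with matplotlib 3.10.9 in Python 3.11.15.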

Additional observations from a re-analysis of the deposited data

How the results depend on the processing

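Of 622 recomputed values, 585 were counted as unchanged. A tested value was counted so if it kept its direction and its side of the threshold, or if it changed direction but stayed uncalled. An msi1 value, which has no test, was counted so if it moved by less than the SD of the 2xX2x arrays. Some values could not change, such as a dose slope without an array of fis1X2x, which that fit does not use. The MPC calls in 2xX6x (log2 2.83 to 4.20) and fis1X2x (3.19 to 4.58), and the AT3G23060 call between paternal and maternal excess (1.60 to 3.85), held in every setting tried. The AT3G23060 fall in 4xX2x lost its call with an offset 2 times as large (-1.27), with no filter (-1.83) and with the compared arrays alone (-1.83), and was -1.88 to -1.77 with each array left out, where either array of 4xX2x, 2xX2x, 2xX4x or 2xX6x took the call away. The AT3G23060 difference between 2xX6x and 6xX2x lost its call with those arrays alone (2.30) and ran from 1.88 to 2.72 with each array left out, and that for MPC ran from 2.55 to 2.79. MPC gained a call between 2xX6x and 2xX4x with the larger offset (1.94), array weights (2.14) and the compared arrays alone (2.14), and ran from 2.05 to 2.22 with each array left out. Between fis1X2x and 2xX4x, MPC lost its call with no offset (2.77) and ran from 2.14 to 2.88 with each array left out. The AT3G23060 slope in the C24 crosses alone, which have fewer arrays, was 1.00 and not called. With each array left out, MPC ran from 1.18 to 1.83 between paternal and maternal excess and AT3G23060 from 1.86 to 2.14 between 2xX4x and 4xX2x. A group left with 1 array was assumed to vary like the others. Elsewhere the cause was not tested. AT3G23060 was below the 60th percentile filter, so no value exists there.

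A replicate block changed no call, as with MPC in 2xX6x (3.32, adjusted p = 0.00787) and AT3G23060 in 4xX2x (-1.83, adjusted p = 0.0401). Median centring shifted all probe sets by 0.117 on the log2 scale in fis1X2x against 2xX2x and by under that elsewhere, and turned no direction of a called value. In 5 cases an uncalled value changed sign. The share of all probe sets that passed moved by over 1.5 times in at least 1 setting in each of 13 comparisons. Its largest fall in percentage points was between paternal and maternal excess, from 5.58% to 2.9% without replicate 2 of 2xX4x. It fell to 0 in 2xX4x against 2xX2x with no offset and in 2xX6x against 2xX4x without replicate 1 of 2xX6x.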
